A study of Mus musculus with 6 samples.

Results

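In cultured airway smooth muscle cells of mice with excess beta2-adrenergic receptor, Cxcl12 and Il12b were called higher at an adjusted p under 0.05. They were the only 2 called of 42 tested genes of interleukins, chemokines, tumour necrosis factor (TNF) family members and their receptors. That is 4.76%, against 7.11% of all tested, and none was called lower. The Cxcl12 call rests on 1 of its 2 probes, and the Il12b call was lost in most fits that left out a single array. The fitted ratios were 1.57-fold for Cxcl12 and 1.39-fold for Il12b, over 6 arrays. The direction of the ratios is likely but not stated. If the sign of the 2 arrays with swapped dyes was not already turned, neither gene is called. Cxcl12 encodes a chemokine that stromal cells release and that draws cells carrying the receptor Cxcr4. Il12b encodes the p40 subunit that interleukin-12 and interleukin-23 share. The group was chosen by gene symbol: an array probe belonged to it if its only symbol began with Il, Cxcl, Cxcr, Ccl, Ccr or Csf followed by a number, or with Tnf, Lif or Ifn. On the array 45 genes met this rule, with 52 probes, and 42 of them had enough values to be tested, among 6807 genes or unnamed probes in all. The 3 others were Il6st and Tnfsf10, with no value on any array, and Il25, with a single value of -5.65 on array 1A.

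Cytokines are small secreted proteins through which cells signal to each other, and chemokines are the cytokines that direct cell movement. Interleukin and interferon receptors mostly act through Janus kinases and STAT transcription factors, whereas interleukin-1 and TNF receptors act through adaptor proteins that switch on the transcription factor NF-kB. Airway smooth muscle contracts and relaxes the airways, and it also makes cytokines and chemokines that recruit immune cells in asthma. The beta2-adrenergic receptor raises cyclic AMP and is the target of inhaled bronchodilators.

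The cells of both genotypes, transgenic mice labelled 2AR-OE and nontransgenic mice labelled NTG, grew out of tracheal explants and were passaged in culture. Most of them stained for smooth muscle actin, per the labels' protocols. Neither group is described as treated. The sources used here do not give the promoter of the transgene, the strain, or the age and number of the mice. The design text gives the purpose as learning what persistent receptor activity does to gene expression. Each of the 6 arrays set transgenic RNA directly against nontransgenic RNA. On the swapped arrays 1C and 2C the transgenic RNA carried the dye Cy3, and on 1A, 1B, 2A and 2B, the Cy5 arrays, it carried Cy5. The arrays with the number 1 are called set 1 here and those with the number 2 set 2, because the meaning of these numbers is not stated. Nothing says that arrays of a set came from separate cultures or mice, so errors and p-values cover array-to-array spread only, and that spread may be technical.

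All values are log2 ratios, likely transgenic over nontransgenic, since neither the direction nor the sign of the swapped columns is stated. If the direction is the reverse, every sign turns. If the swapped columns were not turned to the direction of the others, the ratios reported as transgenic are the dye bias and the dye term is the transgenic effect. Over all probes, columns of the same dye orientation correlated with r from 0.313 to 0.697 and columns of opposite orientation with r from 0.00887 to 0.179. Each array held values for 8495 to 8555 of 8734 probes, and array medians lay between -0.0012 and 0.0007. Array 1C was the widest, with an SD over all probes of 1.04 against 0.467 to 0.608 on the others. A ratio gives no level, so the labelled cell type could not be checked by its markers: Cnn1, the smooth muscle protein calponin, was called at 0.59 ± 0.10, whereas Smtn (-0.05 ± 0.08), Tpm1 (-0.16 ± 0.20) and Cald1 (-0.12 ± 0.06) were not, and the median of the 4 was -0.09.

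A fitted ratio comes from limma with terms for the transgenic comparison and for the dye, and its error is the standard error (SE) over n = 6 arrays. It gives both dye orientations equal weight, so each swapped array counts for more than each of the other 4. A gene was called at an adjusted p under 0.05, with Benjamini-Hochberg adjustment over all 6807. Of the 42 tested genes of the group, 2 were called (4.76%), against 7.11% of all. The called genes were both higher, where 4.03% of all were, and none was lower, where 3.09% of all were. At an unadjusted p under 0.05 there were 10 (23.8%) against 27.7% of all, 9 of them higher and 1, Cxcr4, lower. The median fitted ratio of the group was 0.03 and that of all genes 0.00, and the median size without sign was 0.18 against 0.17. Fitted ratios were positive for 23 of 42 (54.8%), against 50.3% of all. With the swapped columns turned in sign, 18 of 42 were positive, and the median was -0.04. These counts lie near or below those of the whole array. Some fits given below use the 4 Cy5 arrays alone. Such a fit cannot separate the transgenic ratio from the dye effect, and it called 1064 of 6805 (15.6%) over the array. A fit without 1C or without 2C holds a single swapped array. It matches that array exactly, so its error comes from the Cy5 arrays.

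**Figure D1:**
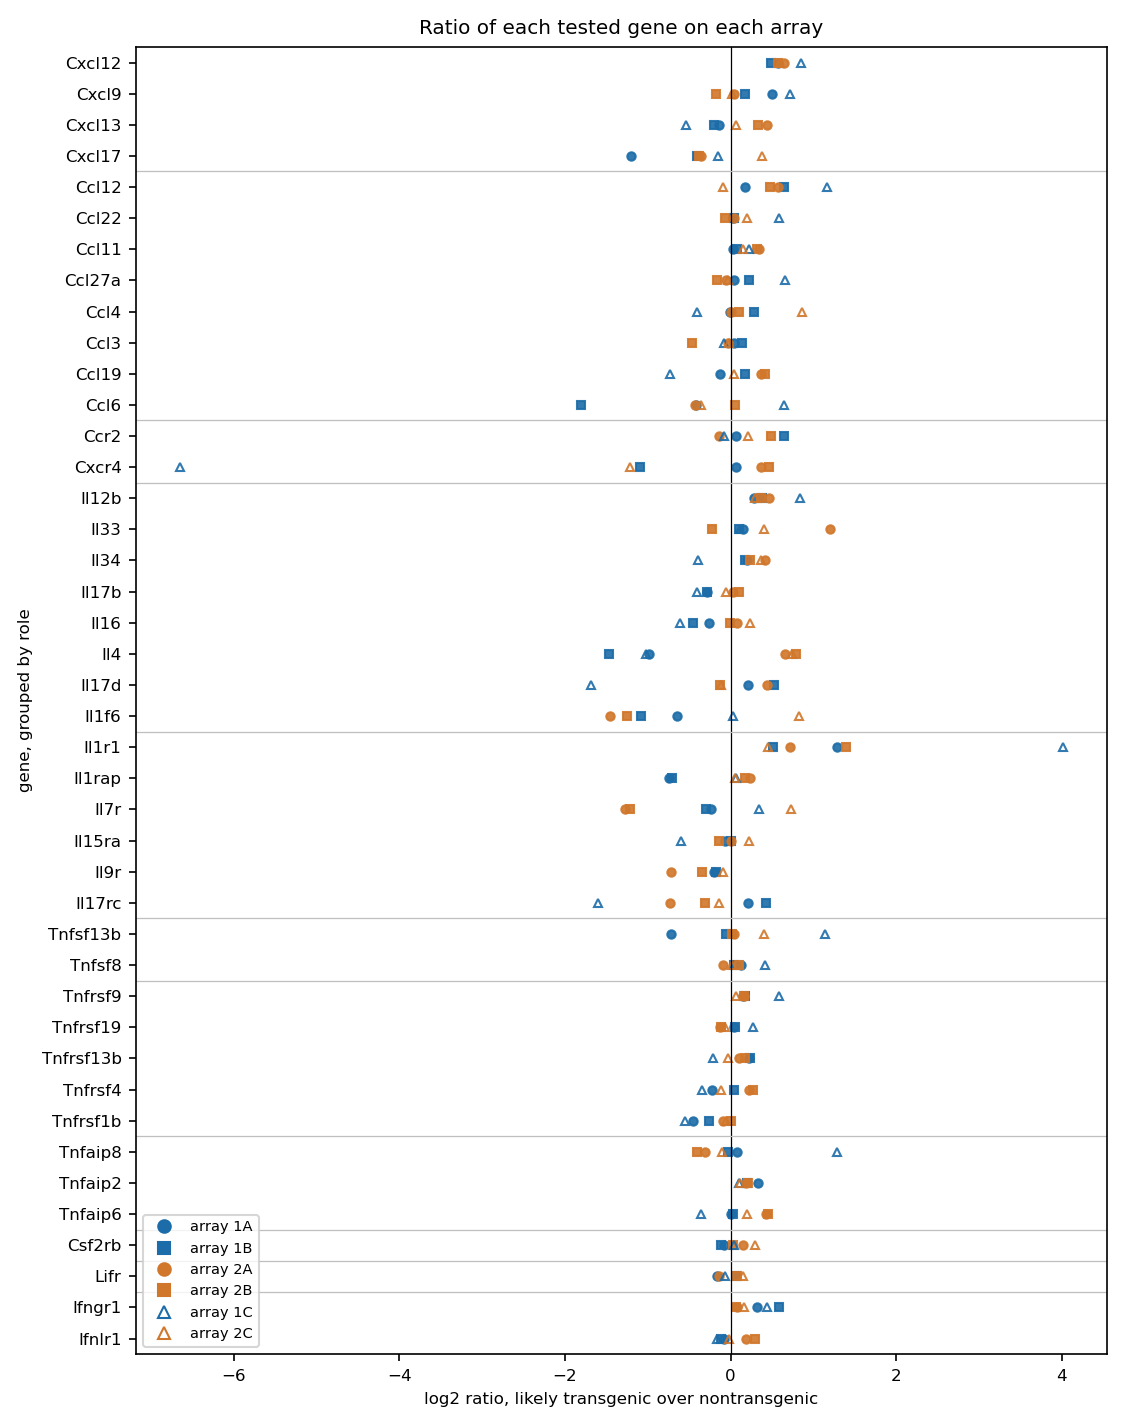
Log2 ratio (x axis, likely transgenic over nontransgenic) of each of the 42 tested genes (y axis, grouped by role) on each array; blue marks set 1, orange set 2, and open triangles the swapped arrays 1C and 2C. Most points lie near 0, while array 1C holds the extreme values of Cxcr4 (-6.64) and Il1r1 (4.01).

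Cxcl12 was at 0.58, 0.49, 0.64 and 0.58 on 1A, 1B, 2A and 2B and at 0.85 and 0.59 on the swapped arrays 1C and 2C. All 6 arrays lay above 0 within a narrow range, in both sets and both orientations. The fitted ratio was 0.65 ± 0.07, or 1.57-fold higher (adjusted p = 0.0074). The call held without each array in turn, with adjusted p from 0.00378 to 0.0382. It was lost where arrays of a set and orientation were averaged first (adjusted p = 0.16); under that setting 0 of 6807 were called and 929 had an unadjusted p under 0.05.

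The value of Cxcl12 is the mean of 2 probes that did not read alike. Probe 533003 gave 1.34, 1.15, 1.28 and 1.17 on 1A, 1B, 2A and 2B and 1.50 and 0.89 on 1C and 2C. Probe 445426 gave -0.18, -0.17, 0.01 and -0.01 on the same 4 arrays and 0.20 and 0.30 on 1C and 2C. The first probe was far above 0 throughout, whereas the second lay on both sides of 0, and their ranges did not overlap. Fitted singly, probe 533003 was at 1.21 ± 0.10 (2.32-fold, adjusted p = 0.00464) and probe 445426 at 0.08 ± 0.07 (adjusted p = 0.46). The call thus rests on 1 of the 2 probes.

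Il12b was read by 1 probe, at 0.28, 0.38, 0.47 and 0.37 on 1A, 1B, 2A and 2B and at 0.84 and 0.29 on 1C and 2C. All 6 arrays were positive, with 1C far above the other 5. The fitted ratio was 0.47 ± 0.09, or 1.39-fold higher (adjusted p = 0.0357). The call was lost without 1A, 1B, 2A, 2B or 1C, with adjusted p from 0.08 to 0.114, and kept without 2C (adjusted p = 0.00635). It was also lost with the set as a random block (adjusted p = 0.122). Without 1C the fitted ratio was 0.34 ± 0.07.

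The stretches upstream of the called genes, and of the receptor genes Il1r1 and Cxcr4 with the largest ratios, are shown because the overexpressed receptor raises cyclic AMP, a signal that is read at the cyclic AMP response element (CRE), and because interleukin-1 and TNF receptors signal to NF-kB. Each holds the 250 bases before a start site in RefSeq (GRCm38.p6), in the direction of the gene, with motif matches in capitals. The motifs were the CRE core TGACG and the full CRE TGACGTCA, on both strands, the TATA box TATAAA on the strand of the gene, and the NF-kB consensus on both strands; every full CRE also holds the core. Cxcl12 lies at chr6:117168285-117168534 (plus strand), Il12b at chr11:44399813-44400062 (plus strand) and Cxcr4 at chr1:128592300-128592549 (minus strand). Il1r1 has 2 start sites in the table, at chr1:40224830-40225079 and chr1:40266336-40266585 (plus strand).
Cxcl12: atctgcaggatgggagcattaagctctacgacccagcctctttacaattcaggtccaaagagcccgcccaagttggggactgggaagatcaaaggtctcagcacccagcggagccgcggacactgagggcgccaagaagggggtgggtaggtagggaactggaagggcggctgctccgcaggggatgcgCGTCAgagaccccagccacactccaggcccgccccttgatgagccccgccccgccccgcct
Il12b: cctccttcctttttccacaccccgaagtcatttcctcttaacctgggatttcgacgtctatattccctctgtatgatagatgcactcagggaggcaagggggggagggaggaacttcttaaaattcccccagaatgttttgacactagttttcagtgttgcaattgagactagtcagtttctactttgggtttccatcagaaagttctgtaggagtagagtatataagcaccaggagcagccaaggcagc
Il1r1, first start: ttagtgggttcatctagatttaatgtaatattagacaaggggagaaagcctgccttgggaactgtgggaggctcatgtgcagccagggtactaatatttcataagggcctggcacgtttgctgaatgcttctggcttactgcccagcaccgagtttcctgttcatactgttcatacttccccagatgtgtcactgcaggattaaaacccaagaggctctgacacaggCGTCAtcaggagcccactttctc
Il1r1, second start: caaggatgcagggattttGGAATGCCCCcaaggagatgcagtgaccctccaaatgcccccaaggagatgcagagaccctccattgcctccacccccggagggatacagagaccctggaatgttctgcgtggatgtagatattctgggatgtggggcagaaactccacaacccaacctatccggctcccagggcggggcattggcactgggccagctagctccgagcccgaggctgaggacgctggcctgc
Cxcr4: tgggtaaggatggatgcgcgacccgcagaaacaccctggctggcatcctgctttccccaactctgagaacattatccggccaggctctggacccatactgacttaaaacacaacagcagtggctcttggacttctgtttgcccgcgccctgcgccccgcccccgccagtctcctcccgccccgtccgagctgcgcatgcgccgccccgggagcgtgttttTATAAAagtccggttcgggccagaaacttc
Cxcl12 held a CRE core 57 to 61 bases before its start and the first start of Il1r1 one 19 to 23 bases before, each as CGTCA, the core read on the other strand. The second start of Il1r1 held an NF-kB match 223 to 232 bases before it and Cxcr4 a TATA box 25 to 30 bases before. Il12b held no exact match to the motifs. Near its start site it reads tataag, which differs from TATAAA in the last letter, and near matches were not counted. Of 32851 RefSeq stretches of this length, 17.8% held the CRE core, 1.55% the full CRE, 7.59% the TATA box and 7.25% the NF-kB consensus. Among 48 stretches of the 36 of 45 genes that matched the table by gene ID, 6, 0, 6 and 4 held them. These are letter matches only, and no binding was measured.

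Apart from Cxcl12, the CXC chemokines were not called. Cxcl9, an interferon-gamma induced chemokine for T cells, was at 0.25 ± 0.13, and Cxcl13, which draws B cells, at -0.06 ± 0.14. Cxcl17, a chemokine of mucosal tissue, had the lowest fitted ratio of these, -0.23 ± 0.15, with -1.20 on 1A, between -0.40 and -0.15 on 4 arrays and 0.38 on 2C.

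None of the 8 CC chemokines was called; 5 had positive fitted ratios, and adjusted p-values ran from 0.139 to 0.769. The highest was Ccl12, a monocyte chemoattractant that signals through Ccr2, with 0.18, 0.65, 0.58 and 0.48 on 1A, 1B, 2A and 2B and 1.16 and -0.09 on 1C and 2C. The swapped arrays thus held both its highest and its lowest value, and the fitted ratio was 0.50 ± 0.18 (adjusted p = 0.139). Its probe 777824 was positive on all 6 arrays, at 0.68 ± 0.16 (adjusted p = 0.0639), while probe 620034 was positive on 4 of 6, at 0.33 ± 0.24. Ccl12 passed the threshold on the 4 Cy5 arrays alone (0.47 ± 0.10, adjusted p = 0.0384). Its fitted ratio was 0.82 without 2C and 0.19 without 1C.

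Ccl11, or eotaxin, which draws eosinophils and is made by airway smooth muscle, was at 0.03, 0.07, 0.35 and 0.32 on 1A, 1B, 2A and 2B and at 0.22 and 0.15 on 1C and 2C. It was positive throughout but small, at 0.19 ± 0.08 (adjusted p = 0.172). Ccl6 had the lowest fitted ratio of the CC chemokines, -0.25 ± 0.28, with single arrays from -1.80 on 1B to 0.64 on 1C. Ccl3 and Ccl4, the macrophage inflammatory proteins, were at -0.06 ± 0.10 and 0.16 ± 0.17, and the other genes of this kind, Ccl19, Ccl22 and Ccl27a, lay between -0.07 and 0.20.

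The chemokine receptors on the array were Cxcr4 and Ccr2. Cxcr4, the receptor for Cxcl12, was at 0.06, -1.09, 0.37 and 0.47 on 1A, 1B, 2A and 2B and at -6.64 and -1.21 on 1C and 2C. The value on 1C is the floor of the table, a ratio of 0.01, and gives only a bound. The other arrays lay on both sides of 0. The fitted ratio of -1.99 ± 0.71 (adjusted p = 0.142) was the lowest of the group and rests on 1C: without it the fit gave -0.63 ± 0.31 (adjusted p = 0.352). With the floor value treated as missing it was also -0.63. Without 2C, where 1C alone stands for the swapped orientation, the fitted ratio of Cxcr4 was -3.35. With quantile normalization it was -1.37 ± 0.23 and called (adjusted p = 0.0197). Ccr2, the receptor for Ccl12, was at 0.16 ± 0.13 and positive on 4 of 6 arrays.

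Of the 8 interleukin genes tested, 5 had negative fitted ratios, and none but Il12b was called. Il33, an alarmin of barrier tissues that drives type 2 immunity, was positive on 5 of 6 arrays, from -0.23 on 2B to 1.20 on 2A, and its fitted ratio was 0.28 ± 0.20. Il34, a ligand of the macrophage receptor Csf1r, was between 0.18 and 0.42 on 5 arrays and at -0.39 on 1C, with a fitted ratio of 0.12 ± 0.11. The interleukin-17 family genes Il17b and Il17d were at -0.17 ± 0.09 and -0.32 ± 0.22; Il17d reached -1.69 on 1C, and without that array its fitted ratio was 0.07. Il16, a ligand of CD4, was at -0.18 ± 0.14.

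Il4 stood apart by set. This cytokine, which drives type 2 immune responses in asthma, was at -0.99, -1.47 and -1.02 on arrays 1A, 1B and 1C and at 0.66, 0.79 and 0.74 on arrays 2A, 2B and 2C. Every array of set 1 was about 2-fold or more below 0 and every array of set 2 above it, whatever the dye. The fitted ratio over both sets was therefore near 0 (-0.20 ± 0.42), while set 2 exceeded set 1 by 1.89 ± 0.16, the largest set difference of the group at an unadjusted p under 0.05. This difference did not pass the adjustment in limma's set model (adjusted p = 0.0716), in which 0 of 6807 passed.

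Il1f6, an interleukin-36 ligand of the interleukin-1 family, differed in sign by dye orientation. It was at -0.64, -1.08, -1.46 and -1.26 on 1A, 1B, 2A and 2B and at 0.03 and 0.82 on 1C and 2C. All 4 arrays of the Cy5 orientation were negative and both swapped arrays positive. The fitted ratio was -0.34 ± 0.15 (adjusted p = 0.213). On the 4 Cy5 arrays alone it was -1.11 ± 0.14 and called (adjusted p = 0.0165). The dye term in limma was -0.77 ± 0.15 and did not pass the adjustment (adjusted p = 0.171). Il7r and Tnfrsf13b also had opposite signs by orientation, as did 10.4% of all genes with 6 values.

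None of the 6 interleukin receptors tested was called, and 5 had negative fitted ratios. The exception was Il1r1, the signalling receptor for interleukin-1, at 1.29, 0.51, 0.72 and 1.40 on 1A, 1B, 2A and 2B and at 4.01 and 0.45 on 1C and 2C. It was positive on all 6 arrays, with 1C at several times the log2 value of the others. Its fitted ratio, 1.60 ± 0.47 or 3.04-fold, was the highest of the group but was not called (adjusted p = 0.0964). It was called on the 4 Cy5 arrays alone (0.98 ± 0.18, adjusted p = 0.0274) and with quantile normalization (1.35 ± 0.30, adjusted p = 0.0423). The fitted ratio was 2.49 without 2C and 0.71 without 1C.

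Il1rap, the accessory chain that pairs with Il1r1, was at -0.75 and -0.70 on 1A and 1B and between 0.05 and 0.24 on the other 4 arrays, with a fitted ratio of -0.10 ± 0.17. Il17rc, a receptor chain for interleukin-17, was at 0.21, 0.43, -0.73 and -0.31 on 1A, 1B, 2A and 2B and at -1.60 and -0.14 on 1C and 2C, for -0.48 ± 0.25 (adjusted p = 0.259). The fitted ratio of Il17rc was -0.12 ± 0.23 without 1C and -0.85 ± 0.23 without 2C. Il7r, the interleukin-7 receptor, was negative on all 4 Cy5 arrays, from -1.27 to -0.23, and positive on both swapped arrays, at 0.34 and 0.73. Il9r was negative on all 5 arrays with a value, at -0.23 ± 0.13 over 5 arrays, and Il15ra was at -0.12 ± 0.12.

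**Figure D2:**
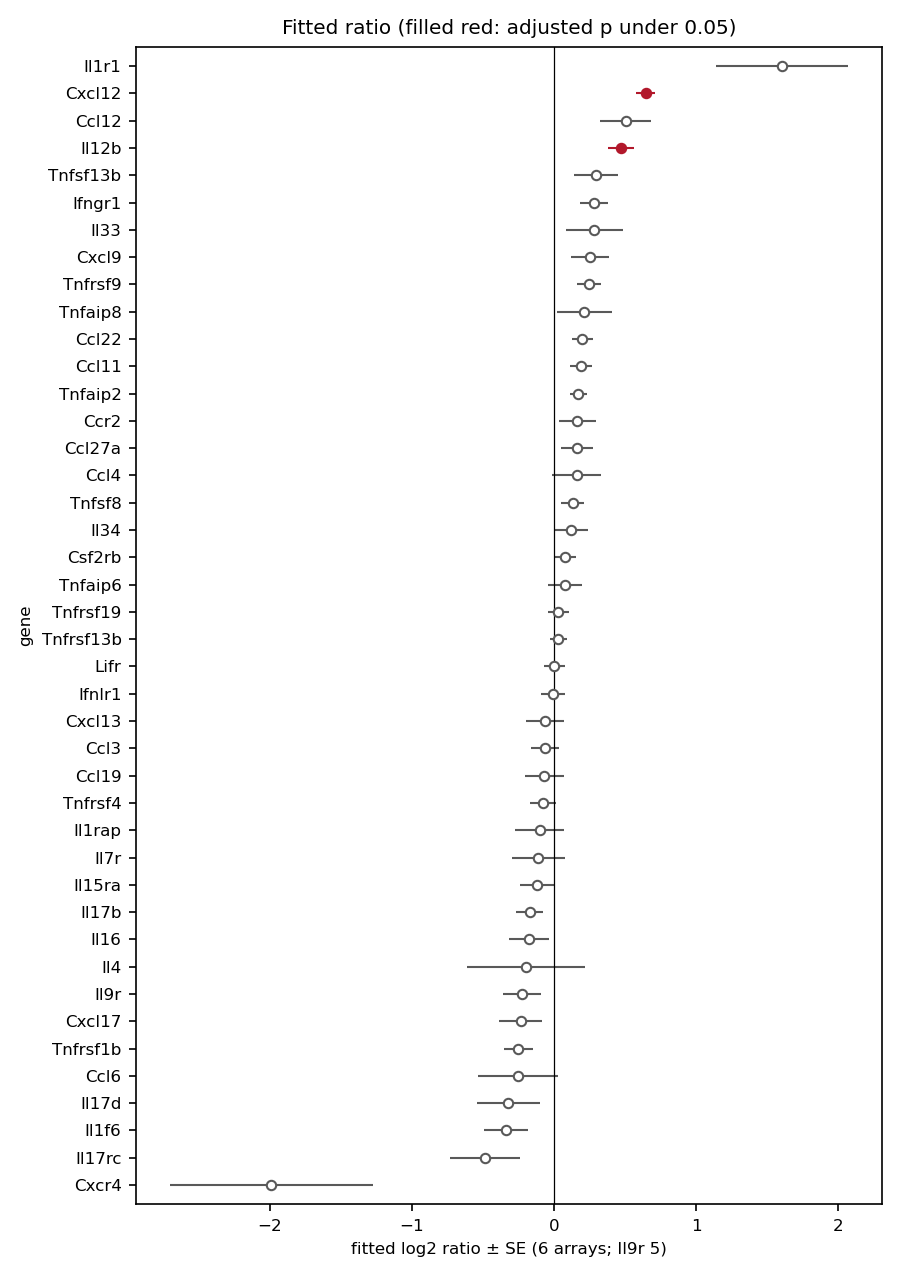
Fitted log2 ratio (x axis, points) with its SE (bars) for each of the 42 tested genes (y axis), sorted; n is 6 arrays, and 5 for Il9r. Cxcl12 (0.65 ± 0.07) and Il12b (0.47 ± 0.09), filled red, passed the threshold, while the more extreme Il1r1 (1.60 ± 0.47) and Cxcr4 (-1.99 ± 0.71) had errors several times wider.

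The other receptors of secreted factors showed small ratios. Ifngr1, the ligand-binding chain of the interferon-gamma receptor, was at 0.33, 0.59, 0.08 and 0.07 on 1A, 1B, 2A and 2B and at 0.44 and 0.16 on 1C and 2C. Every array was positive, set 1 above set 2 without overlap, and the fitted ratio was 0.28 ± 0.10 (adjusted p = 0.139). Ifnlr1, the interferon-lambda receptor, was at -0.01 ± 0.08. Csf2rb, the chain shared by the receptors of GM-CSF, interleukin-3 and interleukin-5, was at 0.08 ± 0.07, and Lifr, the receptor for leukaemia inhibitory factor, at 0.00 ± 0.07.

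In the TNF family, neither of the 2 ligands tested nor any of the 5 receptors was called. Tnfsf13b, or BAFF, a survival factor for B cells, was at -0.71, -0.05, 0.04 and 0.02 on 1A, 1B, 2A and 2B and at 1.13 and 0.40 on 1C and 2C. The swapped arrays were its highest, and the fitted ratio of 0.30 ± 0.15 (adjusted p = 0.262) turned to -0.18 on the 4 Cy5 arrays alone. Its receptor Tnfrsf13b, or TACI, was at 0.03 ± 0.06. Tnfsf8, the ligand of CD30, was at 0.13 ± 0.08.

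Tnfrsf9, the costimulatory receptor 4-1BB, had, with the columns as deposited, the highest fitted ratio of the TNF receptors, with 0.15, 0.17, 0.16 and 0.17 on 1A, 1B, 2A and 2B and 0.58 and 0.07 on 1C and 2C. It was positive on all arrays and nearly constant on the Cy5 arrays, for 0.24 ± 0.08 (adjusted p = 0.136) and 0.12 ± 0.07 without 1C. Tnfrsf1b, or TNF receptor 2, had the lowest, -0.25 ± 0.10 (adjusted p = 0.185), negative on 5 of 6 arrays. With the swapped columns turned in sign, this order changed: Tnfrsf9 was at -0.08, Tnfrsf1b at 0.05 and Tnfrsf4 highest at 0.16. Probe 354773 of Tnfrsf1b was negative on all 6 arrays, from -0.94 to -0.03, and probe 437512 of the same gene on 3. Tnfrsf4, or OX40, was at -0.08 ± 0.09, and Tnfrsf19, or TROY, which is read by 3 probes, at 0.03 ± 0.08.

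The proteins induced by TNF had small positive fitted ratios, with none called. Tnfaip2 was positive on all 6 arrays, from 0.10 to 0.34, at 0.17 ± 0.06 (adjusted p = 0.138), but its probes gave 0.38 ± 0.10 and -0.04 ± 0.08. Tnfaip6, or TSG-6, a hyaluronan-binding protein, was at 0.08 ± 0.12. Tnfaip8, a regulator of cell survival, was at 1.28 on 1C and between -0.40 and 0.07 on the other 5 arrays, for 0.21 ± 0.19; without 1C it was -0.13 ± 0.12.

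**Figure D3:**
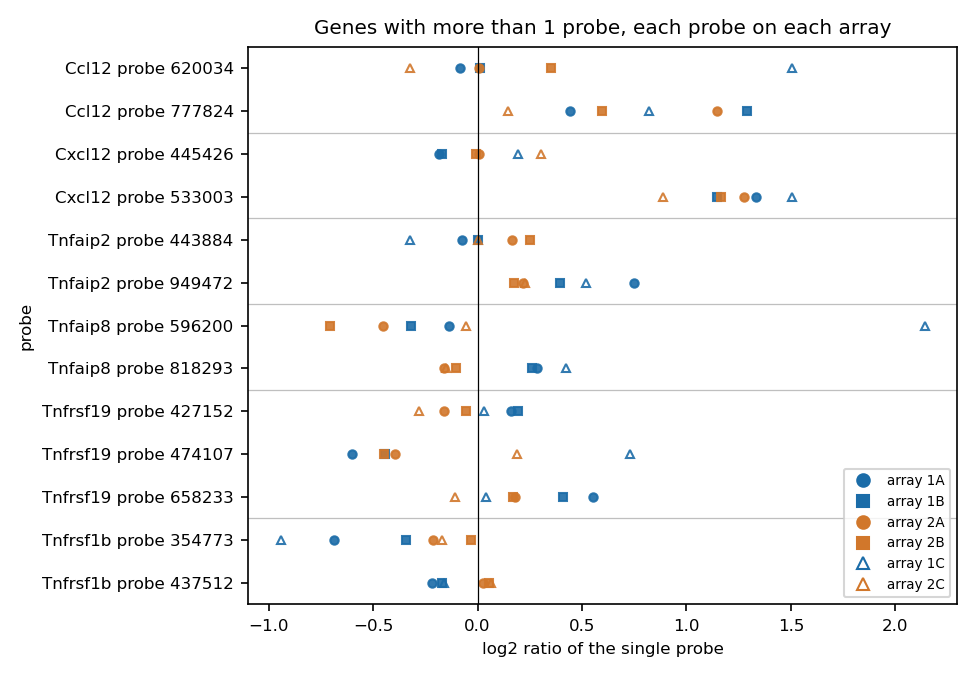
Log2 ratio (x axis) of every probe of the 6 genes with more than 1 probe (y axis, gene and probe number) on each array, marked by set and array. The Cxcl12 probes are apart on every array, at 0.89 to 1.50 for probe 533003 and -0.18 to 0.30 for probe 445426.

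Ligands with their receptors, and chains that pair in 1 receptor, can be set side by side. Cxcl12 was at 0.65 ± 0.07 (its probes at 1.21 and 0.08) beside -1.99 ± 0.71 for Cxcr4. The Cxcr4 value rests on a floor value on 1C, and without 1C it was -0.63 ± 0.31. Ccl12 was at 0.50 ± 0.18 (0.19 ± 0.11 without 1C) beside 0.16 ± 0.13 for Ccr2. For the interleukin-1 receptor the signalling chain Il1r1 was at 1.60 ± 0.47 (0.71 ± 0.20 without 1C) and the accessory chain Il1rap at -0.10 ± 0.17. Of these only the ratio of Cxcl12 passed the threshold, and no test compared the partners.

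Agreement in sign was counted over the 41 genes with 6 values. Positive on every array were 7 (17.1%), namely Ccl11, Cxcl12, Ifngr1, Il12b, Il1r1, Tnfaip2 and Tnfrsf9, against 11.2% of all. No gene of the group was negative on every array, against 8.51% of all. Only Il1r1 and Cxcr4 had fitted ratios beyond 2-fold, where 2.26% of all did, and 34 of 42 lay within 0.3 of 0. That last share was not counted over all genes, whose median size without sign was 0.17, against 0.18 in the group.

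The dye term was past an unadjusted p of 0.05 for 7 of 42 (16.7%), against 18.2% of all; these were Ccl22, Cxcr4, Il17d, Il1f6, Il7r, Tnfrsf13b and Tnfsf13b. After adjustment none of the group passed. Il1f6, Il7r and Tnfrsf13b had opposite signs on all arrays of the 2 orientations, which is 3 of 41 (7.32%) against 10.4% of all. Under the reading in which the swapped columns were not turned, this term is the transgenic effect: Cxcl12 is then at -0.08 ± 0.07, Il12b at -0.10 ± 0.09, Cxcr4 at 1.94 ± 0.71, Il1f6 at -0.77 ± 0.15 and Il7r at -0.64 ± 0.19, with none called.

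The sets were compared within the same model. Set 2 minus set 1 had an unadjusted p under 0.05 for 14 of 42 (33.3%), against 23.7% of all, and for 9 without the dye term. Its median size was 0.34 in the group and 0.24 over all. None passed the adjustment. At that unadjusted p, the largest after Il4 were Tnfaip8 at -0.71 (adjusted p = 0.172), Il1rap at 0.61 (adjusted p = 0.195), Cxcl13 at 0.57 (adjusted p = 0.0724) and Il16 at 0.55 (adjusted p = 0.108). Cxcr4 at 2.43 ± 1.04 and Il1r1 at -1.08 ± 0.87 differed by more but with wider errors (adjusted p = 0.249 and 0.491). Opposite signs on all arrays of the 2 sets were found for Ccl27a, Cxcl13, Il4 and Tnfrsf19, 4 of 41 (9.76%) against 7.12% of all. Cxcl12 did not share this pattern, with means of 0.64 and 0.60.

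**Figure D4:**
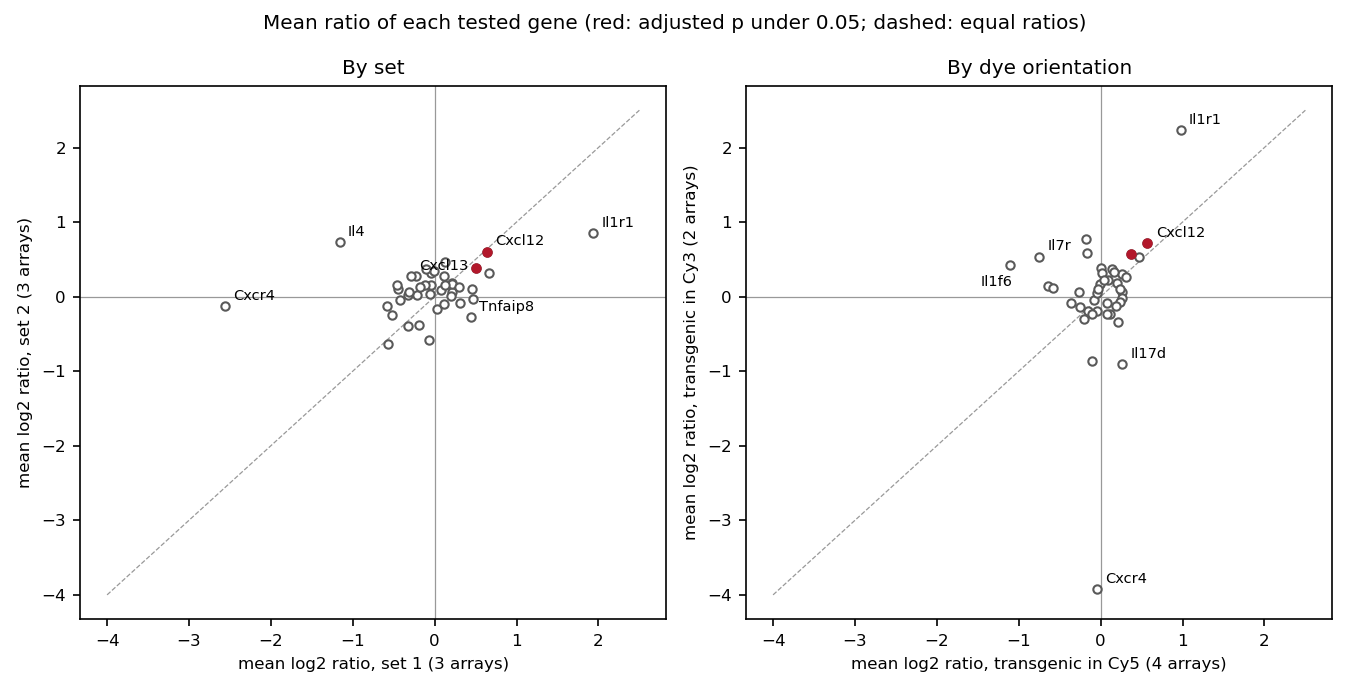
Mean log2 ratio of each tested gene in set 1 (x axis) and set 2 (y axis), left, and over the 4 Cy5 arrays (x axis) and the 2 swapped arrays (y axis), right; the dashed line marks equal means and red the called genes. Cxcl12 lies near the line in both panels, Il4 (-1.16 and 0.73) far from it by set, and Il1f6 (-1.11 and 0.43) and Cxcr4 (-0.05 and -3.93) far from it by orientation.

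Array 1C set many of the wide values. Over the group its SD was 1.39, against 0.351 to 0.531 on the other arrays. It was the array farthest from the gene's median for 24 of 42 (57.1%), and for 40.6% of all. Without 1C, 1 gene of the group was called, Cxcl12 (2.38%), and 188 of 6805 over the array (2.76%). Without 2C there were 10, namely Ccl12, Ccl22, Cxcl12, Cxcr4, Il12b, Il15ra, Il17d, Il1r1, Tnfaip8 and Tnfrsf9 (24.4% of 41 tested). In that fit 1C alone stands for the swapped orientation, and 1687 of 6776 (24.9%) were called over the array.

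The signalling pathways of these receptors were read from gene lists, against 7.11% called over the array. Of 28 listed Janus kinase, STAT and SOCS pathway genes 19 were tested; 1 was higher and none lower, with a median of 0.02. The called gene was Stat2, a transcription factor of interferon signalling, at 0.70, 0.45, 0.29 and 0.39 on 1A, 1B, 2A and 2B and 0.54 and 0.21 on 1C and 2C. All arrays were positive, and the fitted ratio was 0.42 ± 0.09 (adjusted p = 0.0465). The call was lost without 1A, 1B, 2A, 2B or 1C (adjusted p from 0.0892 to 0.168) and with the set block (adjusted p = 0.109).

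Of 45 listed genes of NF-kB, TNF and interleukin-1 receptor signalling 15 were tested; 1 was higher and 1 lower, with a median of 0.14. Myd88, the adaptor of interleukin-1 and Toll-like receptors, was at 0.56, 0.52, 0.38 and 0.35 on 1A, 1B, 2A and 2B and 0.18 and 0.31 on 1C and 2C. It was positive throughout and lowest on the swapped arrays, at 0.35 ± 0.07 (adjusted p = 0.0344), and it lost the call without 1A, 1B, 2A, 2B or 1C (adjusted p from 0.084 to 0.105) and with the set block (adjusted p = 0.107). Map3k7, or TAK1, the kinase that passes interleukin-1 and TNF signals to NF-kB, was at -0.40, -0.45, -0.42 and -0.46 on 1A, 1B, 2A and 2B and -1.06 and -0.61 on 1C and 2C. Every array was negative, and the Cy5 arrays nearly equal. Its fitted ratio of -0.63 ± 0.08 (adjusted p = 0.011) was called without each array in turn and with the set block (adjusted p = 0.0397).

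None of the 4 NF-kB response genes tested, Ptges, Lcn2, Cebpd and Cfb, was called, and their median was -0.13. Only 1 of the 4 had a positive ratio, Cfb at 0.51 ± 0.13 (adjusted p = 0.0709). Among 11 cytokine genes whose symbols lie outside the rule, 1 was higher and 1 lower. Osmr, the receptor for oncostatin M, was at 0.76, 0.70, 0.82 and 0.74 on 1A, 1B, 2A and 2B and 0.71 and 0.79 on 1C and 2C. The 6 arrays were almost equal, and the fitted ratio was 0.75 ± 0.06, or 1.68-fold higher (adjusted p = 0.00411). Tgfb2, a transforming growth factor beta, was at -0.63, -0.91, -1.06 and -1.05 on 1A, 1B, 2A and 2B and -1.29 and -0.998 on 1C and 2C. All arrays were negative, and the fitted ratio was -1.03 ± 0.09, or 2.04-fold lower (adjusted p = 0.0045). Osmr and Tgfb2 stayed called without each array in turn and with the set block.

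**Figure D5:**
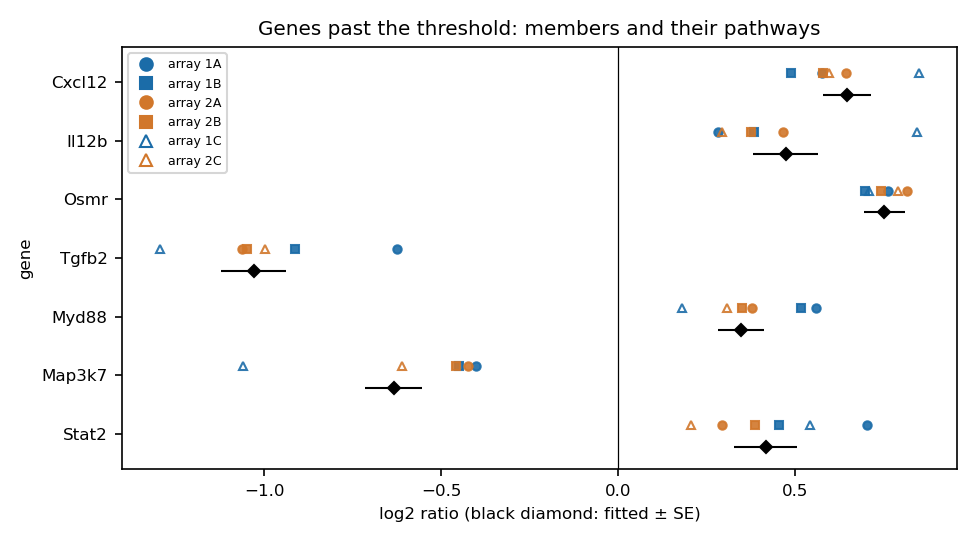
Log2 ratio (x axis) on each array and fitted ratio ± SE (black diamonds, n = 6 arrays) of the called genes of the group and of the pathway lists (y axis). Osmr (0.75 ± 0.06) has the tightest arrays, and Il12b and Map3k7 have 1C far from the other 5.

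Markers of other cells that such cultures may hold were read beside these results. Of 11 macrophage and leukocyte markers none was called, and the median ratio was 0.01, with array medians from -0.21 to 0.04. Of 3 mast cell and 7 endothelial markers none was called; the endothelial median was -0.37. Of 5 epithelial markers 1 was called, Cdh1, at 0.32 ± 0.06, and 4 had positive ratios, with a median of 0.07. Cldn3 of this list was negative on all 6 arrays, at -0.24 ± 0.06, and was not called. Of 5 fibroblast markers 2 were called, both higher, Thy1 at 2.73 ± 0.21 and Mfap5 at 0.81 ± 0.07, and the array medians of the list ran from 0.43 to 1.33. Of the other 3, Lum and Dpt had positive ratios that were not called and Pdgfra was at -0.02 ± 0.14. Thy1 and Mfap5 thus moved in the same direction as Cxcl12, a stromal chemokine, and Osmr, and their part in those ratios was not tested. More cells of a kind and more RNA per cell cannot be told apart in these cultures.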

How the data were processed

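The data are 6 two-colour arrays, 4 with transgenic RNA in Cy5 and 2 in Cy3. Per the labels' protocols, total RNA was reverse transcribed, labelled and hybridised competitively to printed slides; the sources used here do not name the scanner, background correction or normalization. The deposited values are log2 ratios, 1 per probe and array, centred near 0, with a floor of -6.64. Without spot intensities the brightness behind each ratio cannot be given; the number of arrays limits the precision. The ratio is taken as transgenic over nontransgenic because channel 1 of 4 arrays holds transgenic RNA, and the swapped columns as already turned.

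Of 8734 probes, 7540 had 1 symbol in the platform annotation, 14 several and 1180 none. Probes of a symbol were averaged per array, and values on at least 4 arrays in both orientations were required, which left 6807, 5644 of them named. Limma 3.58.1 in R 4.3.3 (lmFit, eBayes; transgenic and dye terms, 2-sided) was fitted to all of them. A set term was added for the set comparison. The code was tested on simulated data.

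The genes described singly were those called, the 12 with the largest fitted ratios, the highest and lowest of each role, values at the floor, called pathway genes and the 5 largest set differences at an unadjusted p under 0.05; Ccl11 and other genes were named after their values were seen. Members and gene lists were chosen with earlier results of these data known. No coordinates are given for probes; upstream sequences come from RefSeq (GRCm38.p6). Alternatives concerned the sign of the swapped columns, the dye term, the set as a block, left-out arrays, filters, probe summary, scaling and weights.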

Additional observations from a re-analysis of the deposited data

Results flagged for a closer look

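For 8 of the 42 tested genes (19%), 1 array lay far from the other 5 by Dixon's criterion, against 15.3% of all 6807; chance gives about 1 in 20. In 7 of these the array was 1C. It read -6.64 for Cxcr4 (nearest other array -1.21), 4.01 for Il1r1 (1.40), -1.69 for Il17d (-0.13), 1.28 for Tnfaip8 (0.07), 0.84 for Il12b (0.47), 0.58 for Tnfrsf9 (0.17) and -0.39 for Il34 (0.18). For Ccl3 the far array was 2B, at -0.46 against -0.08.

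For 4 genes every array of set 1 had one sign and every array of set 2 the other. Set 2 minus set 1 was 1.89 for Il4, 0.57 for Cxcl13, -0.39 for Ccl27a and -0.22 for Tnfrsf19. The difference was tested in limma's set model, where none of the 4 passed the adjustment.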

How the results depend on the processing

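Of the results and alternatives compared, 269 were rated the same, 32 weaker, 9 stronger and 14 reversed. For a gene, the same means that direction and side of the threshold were kept. Counts are included, and some rated the same had moved, such as 681 against 484 called over the array. The genes compared include ones not called in the main fit, so 269 does not measure how stable the calls are. The group had 2 genes called higher, 0 lower, and the array 484. Turning the swapped columns gave 0 higher, with 1 called over the array. With the set as a random block, 1 and 197 were called; the estimated correlation within a set was 0.295. With means of a set and orientation 0 and 0 were called. Array weights gave 1 and 159. The 4 Cy5 arrays alone gave 4 higher, 1 lower (Il1f6) and 1064 over the array. Quantile normalization gave 3 higher (Il1r1 added), 1 lower (Cxcr4) and 681 over the array. Without single arrays, 1 to 7 were called higher, 0 to 3 lower and 168 to 1687 over the array. Set differences at an unadjusted p under 0.05 fell from 14 to 9 without the dye term. For each case the cause was not tested.

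Turned swapped columns reversed the sign of Ccl12 (-0.033), Cxcl12 (-0.075), Cxcr4 (1.94), Ifngr1 (-0.017), Il12b (-0.10), Il17d (0.58), Il17rc (0.38), Il1r1 (-0.63), Tnfsf13b (-0.47), Map3k7 (0.20) and Tgfb2 (0.12). None of these was called. Ccl12 (SE 0.18) and Ifngr1 (SE 0.10) lay within their error of 0, and Cxcl12 (SE 0.07) and Il12b (SE 0.09) little beyond it. The 4 Cy5 arrays alone reversed Il17d (0.26) and Tnfsf13b (-0.18). Without single arrays Il17d ran from -0.71 to 0.071. Other filters, the median of probes, equal array spread, robust variance and leaving out the dye term in the transgenic fit kept both calls. With probes fitted singly, Il12b kept its call, and Cxcl12 kept it for probe 533003 but not for probe 445426.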
